A study of Mus musculus with 2 samples.

Results

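The 10 genes Arntl, Clock, Per1, Per2, Per3, Cry1, Cry2, Nr1d1, Nr1d2 and Dbp form the core of the circadian clock. They were taken by symbol from the 31054 features of 2 single-cell RNA-seq libraries of mouse pancreatic islets, and all 10 were detected in both. One library came from Tg7 mice, a transgenic line in which miR-7a2 is overexpressed in β-cells only, and the other from Wild-type littermates. All mice were 12-week-old C57Bl6 males of the same reporter background, in which rat Ins2-Cre and a Rosa26-floxed-Stop-tdTomato allele label cells with tdTomato once the insulin promoter has been active. The sources used here give neither the number of mice pooled in each library nor the hour at which islets were isolated. With 1 library per group there was no replicate and hence no test, and the genotype, the individual mice, the hour of isolation and the library itself cannot be told apart. Every interval below is a 95% interval for counting error alone.

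In the mammalian clock, the products of Arntl (BMAL1) and Clock pair and switch on genes that carry E-boxes, among them the Per and Cry genes, the nuclear receptor genes Nr1d1 and Nr1d2 (REV-ERBα and REV-ERBβ) and Dbp, a PAR bZIP activator of D-box genes. PER and CRY proteins return to the nucleus and repress BMAL1 and CLOCK, while the REV-ERB receptors repress Arntl through ROR elements. Because the feedback arm and the activator arm peak at opposite phases, transcript levels of single members depend strongly on the time of day. In islets, clocks run in β-, α- and δ-cells and are known for gating insulin secretion. Per1 and Per2 also respond to glucocorticoids and to cAMP signalling.

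The letters of these control elements were looked for near the transcript starts of the members. RefSeq promoter windows of GRCm38.p6, the patch release of the mm10 build to which the reads were aligned, were found for 9 of the 10 members (Per2 had none), with 13 windows in all, each reaching from 250 bases before to 50 bases after a transcript start. They were searched on both strands for the E-box CACGTG, the D-box spellings TTATGTAA and TTACGTAA, and the ROR element cores TAGGTCA and TGGGTCA. The 30-base stretches around the matches are shown here with the element in capitals, to set each element's letters beside the member whose values follow. Those of Per1 and Arntl lie within the gene spans given below, as their windows belong to internal transcript starts.
Per1, E-box, 166 bases before the start, chr11:69098771-69098800, plus strand: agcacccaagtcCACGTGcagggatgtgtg
Cry1, E-box, 60 bases before the start, chr10:85185097-85185126, minus strand: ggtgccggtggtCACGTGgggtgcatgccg
Per3, D-box, 158 bases before the start, chr4:151044805-151044834, minus strand: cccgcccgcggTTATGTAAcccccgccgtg
Per3, D-box, 205 bases before the start, chr4:151044852-151044881, minus strand: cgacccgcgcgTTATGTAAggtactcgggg
Arntl, ROR element core, 30 bases after the start, chr7:113207530-113207559, plus strand: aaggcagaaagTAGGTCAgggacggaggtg
Of all 32851 mouse promoter windows of the same length, 7.15% held the E-box, 1.06% either D-box spelling and 6.45% either ROR core. A match describes these letters in this window and is not evidence of binding, and the remaining members may carry such elements elsewhere.

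Cells were sorted into classes by their hormone transcripts, with barcodes of at least 1000 UMIs (counted molecules) and at most 20% mitochondrial UMIs kept and called doublets removed. This left 992 Tg7 and 749 Wild-type cells, and no barcode was shared between the libraries. The insulin class held 563 Tg7 and 484 Wild-type cells, the Gcg class 167 and 133, the Sst class 16 and 23, and the endothelial class 9 and 23. The reporter marked the insulin class, as 240 tdTomato UMIs in Tg7 and 391 in Wild-type lay in insulin cells against 1 and 2 in Gcg cells and 0 in Sst and endothelial cells. The miRNA itself is not measured by this assay. Insulin transcripts made up a median of 28.9% of the UMIs of Tg7 insulin cells but 63.8% of those of Wild-type insulin cells, so levels are given as CPM, here UMIs per 1000000 UMIs left after setting aside 7 hormone genes. On that scale the median log2 ratio of Tg7 over Wild-type over 10291 well-counted genes in insulin cells was -0.05. Scaling to all UMIs would raise every insulin-cell ratio by 0.81 on the log2 scale, and directions below are relative to the bulk of non-hormone genes. Markers of duct cells made up 0.0673% of non-hormone UMIs in Tg7 insulin cells against 0.0267% in Wild-type, and 0.0606% against 0.02496% in Gcg cells, almost all from Spp1 and Krt7, while Cftr gave 0 UMIs and Krt19 at most 3. Endothelial, macrophage, stellate, acinar, Schwann and lymphocyte markers each made up at most 0.0102% in both classes.

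The members differed in direction in insulin cells. Per2 was 3.43-fold lower in the Tg7 library, Per1 1.70-fold and Cry1 1.55-fold lower, Per3 was 1.75-fold higher, and Arntl and Clock differed by less than 1.1-fold. Under the rule used throughout, a ratio of at least 1.5 in either direction with at least 20 UMIs over both libraries, 1 of the 10 members was higher and 3 were lower. Among all 12698 genes with as many UMIs, 17.4% were higher and 13.7% lower by the same rule. The members' median log2 ratio was -0.33, against -0.02 for all those genes. The 3 lower members out of 10 therefore lay above the background share and the 1 higher member below it, but counts this small set no share precisely.

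**Figure D1:**
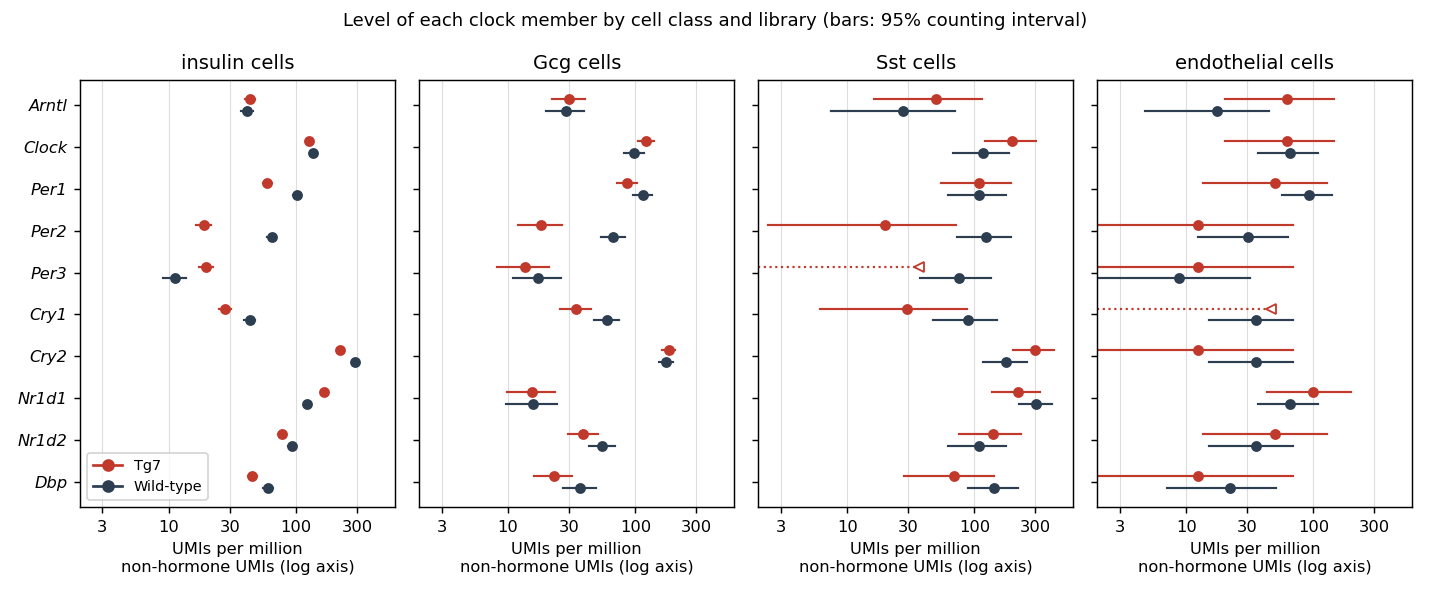
Levels of the 10 clock genes in CPM of non-hormone UMIs (log axis) in 4 cell classes, with Tg7 in red and Wild-type in dark blue. Points are sums over the cells of 1 library, bars are 95% counting intervals, and an open triangle with a dotted line is the upper bound of a gene with 0 UMIs. Per2 lies at 18.7 in Tg7 and 64.1 in Wild-type insulin cells, and at 18.2 and 66.9 in Gcg cells.

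The activator genes were nearly level in insulin cells. Arntl, at chr7:113178471-113314126, gave 483 UMIs in Tg7 and 341 in Wild-type insulin cells, or 43.6 and 41.0 CPM, with a ratio of 1.06 (0.924 to 1.23). Clock, at chr5:76209868-76305603, gave 1384 and 1122 UMIs, or 125 and 135 CPM, with a ratio of 0.926 (0.855 to 1.002). Neither interval excluded 1.

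The Per genes, which encode the repressive period proteins, differed from each other in direction. Per2, at chr1:91415977-91459351, gave 207 UMIs in the 563 Tg7 insulin cells and 533 in the 484 Wild-type cells, or 18.7 (16.2 to 21.4) and 64.1 (58.8 to 69.8) CPM, a ratio of 0.291 (0.247 to 0.343). Per1, at chr11:69095108-69109965, gave 656 and 839 UMIs, or 59.2 and 101 CPM, a ratio of 0.587 (0.529 to 0.651). Per3, at chr4:150997018-151044707 and the member whose promoter held both D-boxes, gave 217 and 93 UMIs, or 19.6 and 11.2 CPM, a ratio of 1.75 (1.37 to 2.26). None of these UMIs came from a few cells only, as the cell with most of them held at most 1.83% of the Per1 UMIs, 1.501% of the Per2 UMIs and 3.23% of the Per3 UMIs of either library. With scaling to all UMIs the Per2 ratio was 0.511 and the Per3 ratio 3.07, but Per1 became level at 1.03.

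The cryptochromes, partners of the PER proteins in repression, were both lower, though only Cry1 by more than 1.5-fold. Cry1, at chr10:85131700-85185054, gave 307 UMIs in Tg7 and 358 in Wild-type insulin cells, or 27.7 and 43.0 CPM, a ratio of 0.644 (0.551 to 0.752). Cry2, at chr2:92403646-92434085, gave 2463 and 2407 UMIs, or 222 and 289 CPM, a ratio of 0.768 (0.726 to 0.813). Both turned above 1 when scaled to all UMIs, at 1.13 and 1.35.

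Among the nuclear receptors and the output gene, Nr1d1 went one way and Nr1d2 and Dbp the other, none by 1.5-fold. Nr1d1, at chr11:98767932-98775377, gave 1825 UMIs in Tg7 and 1010 in Wild-type insulin cells, or 165 and 121 CPM, a ratio of 1.36 (1.25 to 1.47). Nr1d2, at chr14:18204056-18239106, gave 855 and 776 UMIs, with a ratio of 0.827 (0.749 to 0.912). Dbp, at chr7:45705100-45710203, gave 502 and 497 UMIs, with a ratio of 0.758 (0.668 to 0.860). Scaled to all UMIs, Nr1d2 and Dbp turned above 1, at 1.45 and 1.33. Nr1d1 overlaps Thra, a thyroid hormone receptor gene on the other strand, by 1075 bases, and the sources used here do not state whether counting used strand. Thra gave 588 and 230 UMIs in insulin cells, a ratio of 1.92 (1.65 to 2.24), so reads of the overlap could move Nr1d1, and this was not tested. Of the other members, Arntl, Clock, Per2, Per3, Cry2 and Dbp also overlap a neighbouring gene, which leaves only Per1, Cry1 and Nr1d2 clear of one. The overlap spans 14768 bases for Per2, 23417 for Cry2 and 4714 for Per3. Reads of such overlaps could move these members too, and this was not tested.

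In Gcg cells, the α-cell class, no member was higher and 3 were lower, Per2, Cry1 and Dbp, against 8.52% and 12.4% of 8945 genes. Per2 gave 27 UMIs in Tg7 and 85 in Wild-type, or 18.2 and 66.9 CPM, a ratio of 0.272 (0.169 to 0.423). Cry1 gave 51 and 76 UMIs, a ratio of 0.574 (0.395 to 0.829), and Dbp gave 34 and 47, a ratio of 0.619 (0.386 to 0.983). The Tg7 and Wild-type intervals of the levels did not overlap for Per2 and Cry1, whereas those of Dbp did, and no share over all genes is given for this. Per1 was lower by less than 1.5-fold, at 128 and 145 UMIs and a ratio of 0.755 (0.591 to 0.965). Clock, with 181 and 124 UMIs, had a ratio of 1.25 (0.988 to 1.58). The other 5 members lay between 0.709 for Nr1d2 and 1.07 for Arntl with intervals that held 1. The median log2 ratio of the members was -0.38, against -0.04 over all genes with 20 UMIs.

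**Figure D2:**
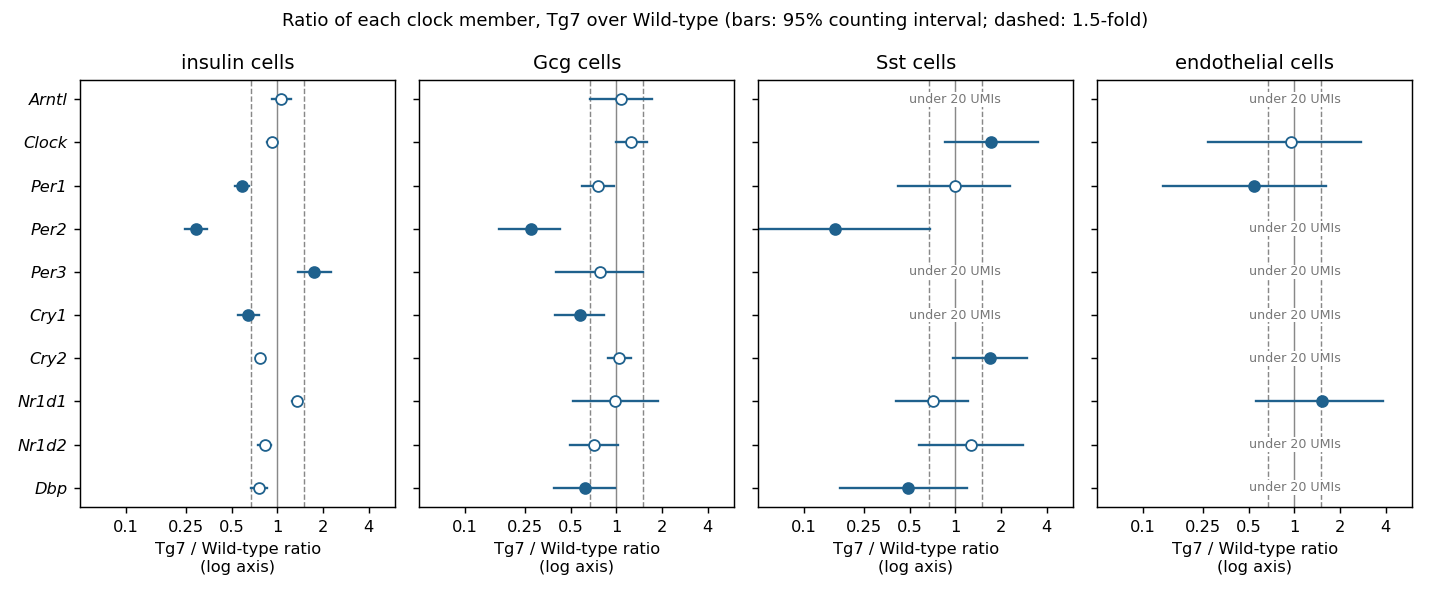
Ratio of Tg7 over Wild-type (log axis) for the 10 clock genes in 4 cell classes, with 95% counting intervals. Filled points pass 1.5-fold (dashed lines) and members with under 20 UMIs over both libraries have no point. Per2 lies at 0.291 in insulin, 0.272 in Gcg and 0.162 in Sst cells, to the left of every other point in those 3 panels.

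Sst cells, the δ-cell class, were few, and 7 of the 10 members reached 20 UMIs. Clock and Cry2 were higher and Per2 and Dbp lower by the rule, against 13.4% higher and 15.3% lower of 2336 genes. Per2 gave 2 UMIs in 16 Tg7 cells and 18 in 23 Wild-type cells, a ratio of 0.162 (0.0182 to 0.675). The intervals of the other 3 held 1, with Clock at 1.71 (0.852 to 3.48), Cry2 at 1.68 (0.960 to 2.95) and Dbp at 0.485 (0.174 to 1.18). Per1 was level, at 109 CPM in each library from 11 and 16 UMIs, with an interval of the ratio from 0.420 to 2.30. Per3, with 0 UMIs in Tg7 and 11 in Wild-type, missed the minimum. With 3 UMIs set as its limit in Tg7 it would be 2.52-fold lower there, a value that leaves out the counting error of the 11 Wild-type UMIs. Cry1 missed the minimum too, with 3 and 13 UMIs.

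Endothelial cells gave too few UMIs to read most members. Only Clock, Per1 and Nr1d1 reached 20 UMIs, with Per1 lower and Nr1d1 higher by the rule, against 18.9% lower and 13.3% higher of 2930 genes. Per1 gave 4 UMIs in 9 Tg7 cells and 21 in 23 Wild-type cells, a ratio of 0.541 (0.135 to 1.61), and Nr1d1 gave 8 and 15, a ratio of 1.52 (0.557 to 3.81), with 1 Tg7 cell holding 62.5% of its UMIs. Per2 gave 1 and 7 UMIs and Cry1 0 and 8, so that neither a difference nor its absence was detectable at this depth. Endothelial cells also held stellate and fibroblast markers at 0.210% of non-hormone UMIs in Tg7 and 0.165% in Wild-type, of which 7 of 8 were detected in each library (Lum at 0 in Tg7 and Pdgfra in Wild-type). Their part in these values was not tested.

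Cells above several hormone limits, 169 in Tg7 and 55 in Wild-type, were of unlike makeup, with insulin at a median of 15.9% of UMIs in Tg7 and 0.194% in Wild-type and Gcg at 5.92% and 11.1%, so that genotype and cell makeup cannot be told apart in them. Of the members 0 were higher and 4 lower, Per2 at 0.400 (0.289 to 0.558), Dbp at 0.545 (0.408 to 0.733), Per1 at 0.609 (0.481 to 0.775) and Per3 at 0.617 (0.407 to 0.956), against 13.5% higher and 13% lower of 10601 genes. Per3 thus lay on the other side of 1 than in insulin cells.

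Across the classes, Per2 was the member lower by at least 1.5-fold in insulin, Gcg and Sst cells alike, which 1.39% of 2300 genes were. Per2 and Cry1 were lower in both insulin and Gcg cells, as were 2.96% of 8894 genes. No member was higher in both or in all 3, as 1.95% and 0.522% of genes were. At 2-fold, Per2 alone was lower in insulin and in Gcg cells (5.84% and 3.6% of genes) and Per2 and Dbp in Sst cells (5.74%), with no member higher (10%, 2.64% and 3.42%). In endothelial cells none passed 2-fold in either direction (4.13% higher and 7.88% lower). The ratio of Per2 in insulin cells divided by that in Gcg cells was 1.07 (0.676 to 1.70), and against Sst cells 1.80 (0.415 to 7.84), and both intervals held 1. For Cry1 the quotient against Gcg cells was 1.12 (0.762 to 1.65). These quotients rest on the scale, since with all UMIs as the base those of Per2 and Cry1 against Gcg cells were 2.04 (1.28 to 3.23) and 2.13 (1.45 to 3.13). Both classes of a genotype come from 1 library, and the cause of a difference seen in both was not tested. Per2 ranked with 1 other gene at its level in all 3 endocrine classes: of the 2300 genes with 20 UMIs in each, only Cldn4, a claudin of tight junctions named here after its values were seen, also had no ratio above 0.291. In Sst cells, however, Per2 gave 2 UMIs in Tg7 and 18 in Wild-type, and Cldn4 1 and 43. Both reached the minimum there mainly on Wild-type UMIs, so the call in all 3 classes and this rank rest on few Tg7 UMIs.

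The size of the difference was not shared for every member. For Per3 the insulin-cell ratio was 2.25 times (1.17 to 4.32) that in Gcg cells, where Per3 gave 20 and 22 UMIs and a ratio of 0.778 (0.403 to 1.49). For Clock the quotient was 0.741 (0.582 to 0.944) and for Cry2 0.733 (0.608 to 0.882), from ratios of 0.926 and 0.768 in insulin and 1.25 and 1.05 in Gcg cells, none past 1.5-fold, but with all UMIs as the base these quotients turned to 1.41 and 1.39. Against Sst cells the quotient was 0.457 (0.270 to 0.776) for Cry2 and 1.91 (1.138 to 3.19) for Nr1d1. Such intervals excluded 1 for 27.5% of all genes between insulin and Gcg cells and for 20.3% between insulin and Sst cells, so 3 of 10 and 2 of 7 members lay near the background.

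Setting the feedback and output UMIs (Per1, Per2, Per3, Nr1d1, Nr1d2 and Dbp) over the activator UMIs (Arntl and Clock) gave a measure that needs no scaling to depth or hormone content. In insulin cells it was 2.28 in Tg7 and 2.56 in Wild-type, a ratio of 0.891 (0.821 to 0.967). In Gcg cells it was 1.28 and 2.43, a ratio of 0.528 (0.410 to 0.680), and in Sst cells 2.24 and 6.05, a ratio of 0.370 (0.191 to 0.717). In endothelial cells it was 1.90 and 3.05, a ratio of 0.622 (0.247 to 1.57) that held 1. The ratio of Tg7 over Wild-type was below 1 in all 4 classes, though the endothelial interval held 1 and no background over other sets of genes is given. The cryptochromes are left out of this sum; with Cry1 and Cry2 added, an alternative chosen after seeing the data, the ratios were 0.846, 0.632, 0.450 and 0.514 in the same order. In insulin cells Nr1d1 supplied 1825 of the 4262 feedback and output UMIs of Tg7 and 1010 of the 3748 of Wild-type. Reads of its overlap with Thra could move these counts, which was not tested.

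Cells were next compared at equal depth, by drawing 2000 non-hormone UMIs from each. At that depth 17 of 550 Tg7 insulin cells (3.09%, exact interval 1.81 to 4.90) and 57 of 480 Wild-type insulin cells (11.9%, 9.12 to 15.1) held a Per2 UMI. In Gcg cells these were 9 of 155 (5.81%, 2.69 to 10.7) and 19 of 131 (14.5%, 8.96 to 21.7). The insulin-cell intervals did not overlap, while those of Gcg cells did, and no share over all genes is given for this. With 1000 UMIs drawn, Per2 was seen in 4 of 161 Tg7 Gcg cells (2.48%, 0.681 to 6.24). In Wild-type Gcg cells it was then seen in 5 of 131 (3.82%, 1.25 to 8.68), so the Gcg difference was small at that depth. In insulin cells that draw gave 9 of 557 (1.62%, 0.741 to 3.05) and 32 of 482 (6.64%, 4.59 to 9.24). Per1 was seen in 9.09% of Tg7 and 17.3% of Wild-type insulin cells and Per3 in 3.45% and 1.04%. Cry1 was seen in 6.91% and 8.54%, with overlapping intervals. Drawing left out 13 Tg7 and 4 Wild-type insulin cells and 12 and 2 Gcg cells. At full depth Per2 was seen in 27.2% and 58.1% of insulin cells and in 14.4% and 40.6% of Gcg cells. In macrophages, at median depths of 4702 and 7474.5 non-hormone UMIs against 15727 and 14661.5 in insulin cells, 0 UMIs of Per2, Arntl, Per3, Cry2 and Nr1d1 were seen in 23 Tg7 and 8 Wild-type cells, while Per1 gave 12 and 5. A count of 0 there allows, by the exact interval, a share of cells with a UMI of up to 14.8% and 36.9%, and sets no limit on cells that express the gene.

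**Figure D3:**
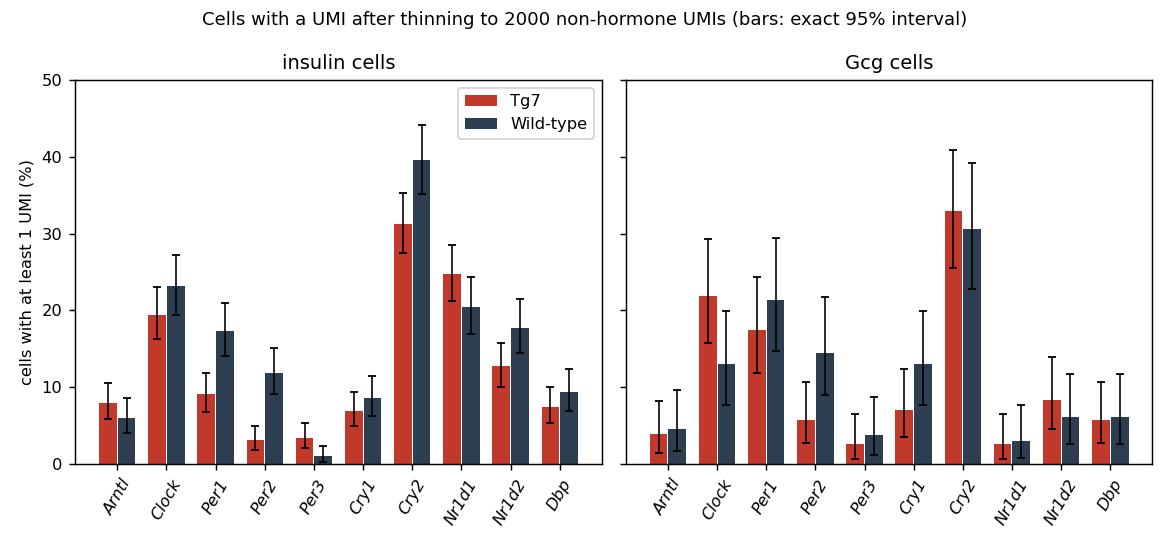
Share of insulin and Gcg cells with at least 1 UMI of each clock gene after drawing 2000 non-hormone UMIs per cell, with exact 95% intervals; Tg7 is red and Wild-type dark blue. Per2 stands at 3.09% against 11.9% in insulin cells and at 5.81% against 14.5% in Gcg cells.

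An upper limit on free insulin-cell RNA in Gcg droplets came from their insulin transcripts. Had all insulin transcripts in Gcg cells come from free RNA, it would have carried 0.886% of their UMIs in Tg7 and 0.275% in Wild-type. At that rate it would have given 0.262 of the 27 Tg7 and 0.126 of the 85 Wild-type Per2 UMIs, and 0.389 of 51 and 0.0846 of 76 for Cry1. In Tg7 Sst cells the corresponding share was 4.67%.

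The members also differed between classes within each library. Nr1d1, whose product represses Arntl, was 10.6-fold (7.06 to 16.8) lower in Gcg than in insulin cells of Tg7 and 7.71-fold (4.97 to 12.7) lower in Wild-type, from 23 and 20 UMIs (11.3-fold and 4.33-fold with all UMIs as the base). A 5-fold lower level in both libraries was seen for 3.03% of 11260 genes. Its Wild-type levels ran from 307 CPM in Sst and 121 in insulin to 65.8 in endothelial and 15.7 in Gcg cells, and none of these 4 intervals overlapped; with all UMIs as the base the endothelial level was 1.67 times (0.930 to 2.77) that of insulin cells. In Tg7 the order was 218 in Sst, 165 in insulin, 99.8 in endothelial and 15.5 in Gcg cells, and only the Gcg interval lay apart from its neighbour. Thra did not share this order, with Gcg levels 1.17 times (0.927 to 1.46) and 2.48 times (1.91 to 3.18) those of insulin cells in Tg7 and Wild-type.

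**Figure D4:**
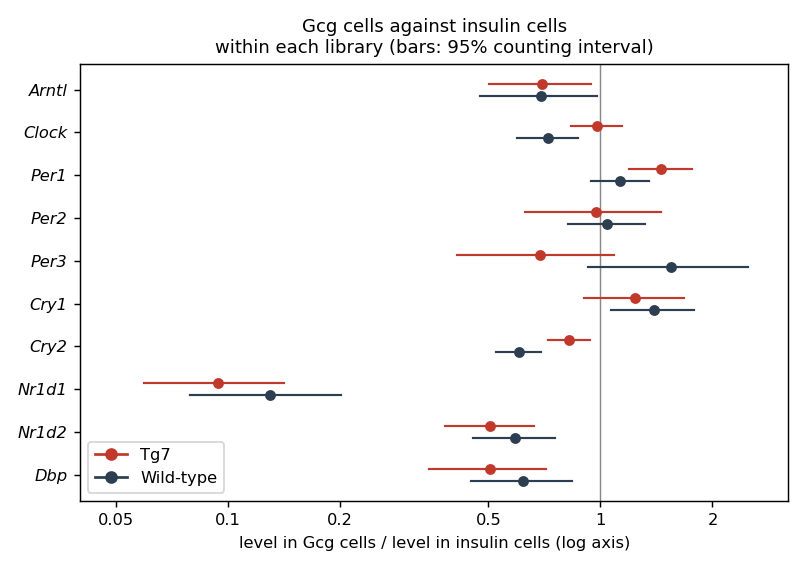
Level of each clock gene in Gcg cells divided by its level in insulin cells of the same library (log axis), with 95% counting intervals, Tg7 in red and Wild-type in dark blue. Nr1d1 lies far below the other 9 members, at 0.0941 in Tg7 and 0.130 in Wild-type.

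Dbp and Nr1d2 were also lower in Gcg than in insulin cells of both libraries, Dbp 1.98-fold (1.40 to 2.89) in Tg7 and 1.61-fold (1.196 to 2.23) in Wild-type, and Nr1d2 1.97-fold (1.51 to 2.62) and 1.69-fold (1.32 to 2.19). With all UMIs as the base the Wild-type ratios turned above 1, at 1.10 for Dbp and 1.05 for Nr1d2. A level at least 1.5-fold lower in both libraries was common, at 22% of 11260 genes. Per2 was level between the classes: its Gcg over insulin ratio was 0.974 in Tg7 (0.627 to 1.46) and 1.04 in Wild-type (0.821 to 1.32), the latter becoming 1.86 with all UMIs as the base. Its Wild-type levels were 123 CPM in Sst, 66.9 in Gcg, 64.1 in insulin and 30.7 in endothelial cells, where neighbours overlapped and the Sst interval lay apart from those of insulin and endothelial cells. In Tg7 they were 19.9 in Sst, 18.7 in insulin, 18.2 in Gcg and 12.5 in endothelial cells, all overlapping. Among the 4 compared classes Cry2 was lowest in endothelial cells, with 1 UMI in Tg7 and 8 in Wild-type, a ratio to insulin cells of 0.0561 (0.00142 to 0.313) and 0.121 (0.0523 to 0.239), or 0.0987 and 0.373 with all UMIs as the base.

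Within a library all cells share the mice, the hour of isolation and the run, so insulin cells were split at their own library's median share of Ins1 among insulin UMIs, which was 5.17% in Tg7 and 30.1% in Wild-type. Per2 was level between the low-Ins1 and the high-Ins1 part, at 102 and 105 UMIs in Tg7, a ratio of 1.03 (0.776 to 1.36), and at 268 and 265 UMIs in Wild-type, a ratio of 1.05 (0.879 to 1.24). Per1 and Cry1 had ratios of 0.920 (0.787 to 1.08) and 0.948 (0.752 to 1.19) in Tg7. Per3 was 1.39 times (1.05 to 1.83) as high in the low-Ins1 part of Tg7, with 123 and 94 UMIs. In Wild-type the low-Ins1 part was higher for Nr1d1 (1.25, 1.10 to 1.42), Nr1d2 (1.27, 1.10 to 1.47), Dbp (1.25, 1.04 to 1.498), Cry2 (1.15, 1.06 to 1.24) and Clock (1.13, 1.003 to 1.27). Its cells had a median of 45183 UMIs against 54672, and the part of this depth gap was not tested. No member passed 1.5-fold in either library, though with all UMIs as the base Nr1d1, Nr1d2 and Dbp reached 1.51, 1.54 and 1.51 in Wild-type. By that much, 2.26% of genes were higher and 3.6% lower in the low-Ins1 part of Tg7, and 3.89% and 2.79% in that of Wild-type.

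The rest of the pathway was read from lists, whose counts stand beside 17.4% higher and 13.7% lower of all genes in insulin cells and 8.52% and 12.4% in Gcg cells. Among other E-box feedback genes in insulin cells, 0 of 4 were higher and 2 lower, Bhlhe41 (DEC2, a repressor at E-boxes) at 0.543 (0.479 to 0.615) and Cipc (a CLOCK-interacting repressor) at 0.568 (0.460 to 0.700). Of 4 clock output genes 3 were lower, Noct (nocturnin) at 0.555 (0.502 to 0.614), Nampt (the rate-limiting enzyme of NAD salvage) at 0.588 (0.506 to 0.684) and Usp2 (a ubiquitin protease) at 0.641 (0.554 to 0.741). Wee1, the mitotic kinase under E-box control, stood at 0.760 (0.660 to 0.876) in insulin and at 0.449 (0.342 to 0.586) in Gcg cells, where it was the 1 lower member of the 4. The median log2 ratio in insulin cells was -0.61 for the E-box feedback and -0.70 for the output list. In Gcg cells Cipc was the lower of the 2 E-box feedback genes that could be read, at 0.428 (0.187 to 0.921). These directions in insulin cells hold relative to other non-hormone genes, since with all UMIs as the base no gene of the lists passed as lower there except 2 immediate early genes.

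Activators and D-box factors went in both directions. Among other activator and ROR genes, Rorb, a receptor that activates through the element shown for Arntl, was higher in insulin cells, at 4.29 (1.90 to 11.3) from 40 and 7 UMIs. Npas2, a CLOCK homologue, was lower at 0.655 (0.420 to 1.02) from 41 and 47 UMIs, and Rora stood at 0.932 (0.857 to 1.01). Hlf, a PAR bZIP factor like Dbp, gave 241 and 76 UMIs and was higher at 2.38 (1.83 to 3.12), while Tef stood at 0.864 and Nfil3, the repressor at D-boxes, at 0.813 (0.751 to 0.879). In Gcg cells Hlf was at 0.764 (0.427 to 1.36), an interval that held 1, as did that of Per3.

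**Figure D5:**
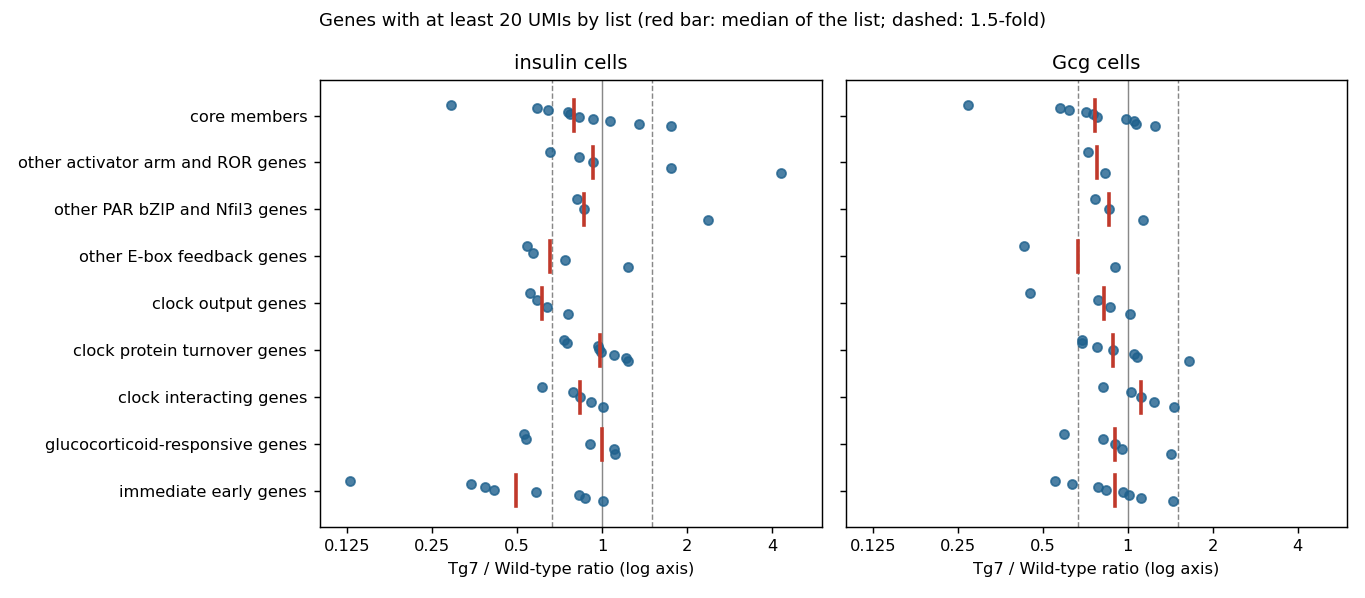
Ratio of Tg7 over Wild-type (log axis) for genes with at least 20 UMIs in each list in insulin and Gcg cells. Points are genes, red bars list medians and dashed lines 1.5-fold; Zbtb16 in insulin cells, with 0 Wild-type UMIs, has no point. The output list is centred at a log2 ratio of -0.70 and the immediate early list at -1.01 in insulin cells.

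Genes that act on clock proteins were near level. Of 8 genes for clock protein turnover none passed 1.5-fold in insulin cells, with a median log2 ratio of -0.02 and Fbxl21 at 1.24. In Gcg cells 1 of the 7 that could be read was higher, Fbxw11 at 1.64 (1.09 to 2.51). Of 5 interacting genes with 20 UMIs, Sirt1, the NAD-dependent deacetylase, was lower in insulin cells at 0.612 (0.492 to 0.761), and none passed in Gcg cells.

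Per1 and Per2 are also targets of glucocorticoid and of activity-dependent signalling, and both lists were read beside them. Of 6 glucocorticoid-responsive genes, Tsc22d3 (GILZ) at 0.528 (0.465 to 0.599) and Dusp1, a MAP kinase phosphatase, at 0.538 (0.511 to 0.566) were lower in insulin cells. Zbtb16 gave 106 UMIs in Tg7 and 0 in Wild-type. With 3 UMIs set as its Wild-type limit it would be 26.5-fold higher, a value that leaves out the counting error of the 106 UMIs. Klf9 and Fkbp5 stood at 1.12 and 1.10. In Gcg cells 1 of 5 was lower, Tsc22d3 at 0.596 (0.385 to 0.913). Of 8 immediate early genes 5 were lower and none higher in insulin cells (13.7% and 17.4% of all genes), from Nr4a1 at 0.128 (0.110 to 0.149) through Fosb at 0.343, Fos at 0.385 and Junb at 0.413 to Atf3 at 0.581. In Gcg cells 2 were lower (12.4% of all genes), Nr4a1 at 0.550 (0.394 to 0.763) and Junb at 0.635 (0.574 to 0.702), while Fos stood at 0.962 (0.889 to 1.04). The immediate early list had a median log2 ratio of -1.01 in insulin and -0.15 in Gcg cells. As ratios, not log2 values, Per2 stood at 0.291 and 0.272 in the same classes, and a link to that list was not tested.

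Well-counted genes were also ranked by a direction shared over the 3 endocrine classes. Per2 itself, with 2 and 18 UMIs in Sst cells, did not reach this set. Among 224 named genes with at least 100 UMIs in each of the insulin, Gcg and Sst classes, leaving out hormone, ribosomal and mitochondrial genes, likeness was the largest of the 3 ratios for lower genes and the smallest for higher ones. The lowest were Hspa1b, an inducible heat shock protein, at 0.485, the keratin Krt8 at 0.497, the nuclear lamin Lmna at 0.548, Tm4sf4 at 0.608 and the actin-severing protein Dstn at 0.618. These values are not ranked against the 0.291 of Per2, which met only the minimum of 20 UMIs. In insulin cells alone Krt8 stood at 0.249. The highest were Txnip, the thioredoxin-interacting protein, at 1.72, Tmem27 at 1.66, Ssr4 at 1.44, the amidating enzyme Pam at 1.37 and Ptprn at 1.35. Of the 7 members with 20 UMIs in all 3 classes, Dbp came after Per2, with no ratio above 0.758, a value that 2.87% of 2300 genes did not exceed. That value is the insulin-cell ratio of Dbp, which turned to 1.33 when scaled to all UMIs. Its Sst ratio came from 7 Tg7 and 21 Wild-type UMIs, with an interval that held 1.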

How the data were processed

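Islets of Tg7 and Wild-type mice were dissociated and measured by droplet single-cell RNA-seq (10x Genomics), with 1 library per genotype. UMI counts, deposited by the authors as 1 matrix per library, were made with Cell Ranger 3.0.2 (which runs STAR) after bcl2fastq 2.17.1.14 on mm10; neither the gene annotation nor the strand setting is stated in the sources. The matrices held 1123 Tg7 barcodes with 29931777 UMIs and 855 Wild-type barcodes with 30829078 UMIs. Of these, 1006 and 755 reached 1000 UMIs with no more than 20% of them mitochondrial, and Scrublet (scanpy 1.11.5) then removed 14 and 6 doublets. No deposited cell types were used, so classes may differ from those of the study.

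Insulin, Gcg, Sst and Ppy cells held at least 5%, 4%, 2% and 4% of their UMIs as that hormone and less of the others. Endothelial cells and macrophages had at least 3 of 8 markers with a sum of at least 0.2%. Cells above several hormone limits (169 Tg7 and 55 Wild-type) were kept apart. UMIs were summed per class and library, divided by UMIs of genes other than Ins1, Ins2, Gcg, Sst, Ppy, Pyy and Iapp, and compared as ratios with conditional exact binomial intervals; level intervals are exact Poisson, shares Clopper-Pearson, and quotients log-scale Poisson. Scripts used numpy 2.4.6, scipy 1.17.1, pandas 2.3.3 and, for the TMM alternative, edgeR 4.0.16 in R 4.3.3, and were checked on simulated counts.

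All 10 members are named, with up to 4 genes per list by the size of their insulin-cell ratio and 5 like-pattern genes in each direction; further list genes (Rora, Tef, Nfil3, Fbxl21, Klf9, Fkbp5, Fosb, Fos, Junb and Atf3 among them) were named with their values known. Some list genes are not reported here. The members and lists were chosen with earlier results of these data known. Alternatives covered scaling, filters, class limits, cell weighting, depth, the minimum and the fold. Ppy cells (18 in Tg7 and 10 in Wild-type) and macrophages (23 and 8) were not compared between genotypes, although the Sst and endothelial classes, of like size, were.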

Additional observations from a re-analysis of the deposited data

Results flagged for a closer look

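For 3 members the Tg7 over Wild-type ratio differed between insulin and Gcg cells by more than counting error, as the quotient of the 2 ratios was 0.741 for Clock, 2.25 for Per3 and 0.733 for Cry2. Between insulin and Sst cells this held for Cry2 at 0.457 and for Nr1d1 at 1.91. Such intervals excluded 1 for 27.5% of all genes against Gcg and 20.3% against Sst cells, so these 3 of 10 and 2 of 7 members lie near the background. These quotients compare 2 libraries, not genotypes, and were not tested over replicates. With all UMIs as the base, the quotients of Clock and Cry2 against Gcg cells turned to 1.41 and 1.39 and that of Cry2 against Sst cells moved to 0.861, while those of Per3 and Nr1d1 grew to 4.28 and 3.59. Over the other settings, the Gcg ratio of Per3 ranged from 0.469 to 1.19 and the Sst ratio of Nr1d1 from 0.560 to 1.31.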

How the results depend on the processing

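No paired analysis was possible because each group is 1 library and the labels give no replicate numbers, and for the same reason no replicate could be left out. Over the other settings, 83 of 100 values of member ratios in insulin cells moved by less than the counting error of the main setting. The same held for 99 of 100 in Gcg, 68 of 69 in Sst and 28 of 28 in endothelial cells. The insulin-cell values that moved further came from scaling to all UMIs and from drawing 2000 non-hormone UMIs per cell. That draw gave 1.37 for Arntl, 0.825 for Clock, 0.485 for Per1, 3.67 for Per3, 0.831 for Cry1, 0.690 for Cry2 and 0.668 for Nr1d2. It left 2 members lower, with Cry1 no longer among them. Few UMIs remain after the draw, with Per3 seen in 19 Tg7 and 5 Wild-type insulin cells and Cry1 in 38 and 41. Whether these shifts exceed the larger counting error of the draw itself was not tested. Per2 stayed below 1 throughout, at 0.247 to 0.511 in insulin and 0.251 to 0.423 in Gcg cells.

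Scaling to all UMIs, which by construction adds the lower insulin share of Tg7 cells to every ratio, turned Per1 to 1.03, Cry1 to 1.13, Cry2 to 1.35, Nr1d2 to 1.45 and Dbp to 1.33 in insulin cells. It raised the higher members there from 1 to 4 and cut the lower from 3 to 1. In the insulin-cell lists it changed higher and lower counts to 3 and 0 for activator and ROR genes, 2 and 0 for PAR bZIP and Nfil3 genes, 1 and 0 for E-box feedback, 6 and 0 for turnover, 2 and 0 for interacting, 0 and 0 for output, 4 and 0 for glucocorticoid-responsive and 2 and 2 for immediate early genes. With the same base, chosen after seeing the data for these values, the insulin over Gcg quotients of Clock and Cry2 turned to 1.41 and 1.39, and the Wild-type Gcg over insulin levels of Arntl, Clock, Cry2, Nr1d2 and Dbp to 1.23, 1.29, 1.07, 1.05 and 1.10. A fold of 2 left 0 higher and 1 lower in insulin, 1 lower in Gcg, 0 higher in Sst, and 0 higher and 0 lower in endothelial cells. In Sst cells, hormone limits 2 times as high gave 1 higher and 4 lower, limits 0.5 times as high 1 lower of 3 read, and no minimum 4 lower, while the leading hormone and the mean over cells each gave 1 higher. In endothelial cells TMM gave 0 higher, and no minimum gave 2 higher and 5 lower. The cause was not tested where the setting does not fix it. Under 20 UMIs a 1.5-fold difference lies within counting error, which limits Sst and endothelial cells.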
